A study of Mus musculus with 26 samples.

Results

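The Otx2 locus was taken as every peak that overlapped the Otx2 gene or the 100 kb on either side of it. The gene (gene ID 18424) lies on the minus strand at chr14:48656781-48667644 of GRCm38. Over 26 ATAC-seq peak lists the locus held 55 of 451563 peaks. Merged across lists, these gave 13 of 75600 union regions, that is, stretches formed by joining overlapping or touching peaks. ATAC-seq cuts accessible DNA with the Tn5 transposase, and each library came from 50000 mouse pluripotent cells.

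The first set had 18 libraries, 3 from each of 6 cultures. Embryonic stem cells (ES) were grown in 2iL and taken at passage 16. Formative stem cells grew in A3XR as FS1 (passage 21) and FS2 (passage 29), together called FS. Epiblast stem cells grew in AF (EpiSC_AF, passage 22) or in AFX (EpiSC_AFX1 at passage 14 and EpiSC_AFX2 at passage 16, together EpiSC_AFX). The Rd2 set had 8 libraries: Rd2_ES, 2 libraries of ES cells kept in 2iL (passage 33), Rd2_EpiLC, 4 libraries of epiblast-like cells, and Rd2_AFX, 2 libraries of AFX-grown EpiSCs (passage 16). The epiblast-like cells were made from ES cells by 2 days in AF with KSR and sorted for low GFP, so they were the GFP-low part of that culture only. The labels of the Rd2 titles call these cells WT and name no further allele. The source names are Rd2GFP for Rd2_ES, Rd2EpiLC for Rd2_EpiLC and Rd2AFX for Rd2_AFX, so GFP is named for the ES cells. Libraries are numbered within a culture without a statement that they came from separate dishes, so each p measures the spread between libraries, which may be technical.

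Otx2 encodes a paired-type homeodomain transcription factor of the Otx family. It is switched on when naive pluripotent cells move towards the post-implantation epiblast, where it works with Oct4 at newly opened enhancers and restrains entry into the germ line. Later it is needed for the anterior head and the forebrain. Distal elements on both sides of the gene are known to drive it in different tissues.

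The culture labels were set against marker genes, counting peaks within 20 kb of each gene at equal list length (defined below). The 10 naive markers summed to 9 to 11 peaks in ES libraries, 4 to 6 in FS1, 2 to 5 in FS2, 3 to 4 in EpiSC_AF, 6 to 7 in EpiSC_AFX1 and 4 to 5 in EpiSC_AFX2. The 8 formative markers summed to 0 to 3 peaks in ES, 5 to 8 in FS1, 2 to 8 in FS2, 9 to 12 in EpiSC_AF, 9 to 11 in EpiSC_AFX1 and 6 to 9 in EpiSC_AFX2. ES thus had the most naive-marker peaks, and neither list separated FS from all EpiSC cultures. The 6 primed markers had no more than 2 peaks in any first-set library, and Gsc, Mixl1 and Cer1 had none in any EpiSC library. T, Eomes and Foxa2 had peaks in EpiSC_AF, and T had none in any other first-set culture. The sums of the 6 primed markers overlapped between all cultures, so they did not set the EpiSC cultures apart.

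The gene table lists 4 Otx2 starts, at 0, 0.136, 2.54 and 4.91 kb along the gene. The 250 bases before 3 of them are printed because they show where the few promoter peaks fell: start 1, the outermost, without a peak in any list, and starts 3 and 4, each touched by a peak in 1 list. Sequences are from RefSeq on GRCm38.p6, minus strand, 5′ to 3′, and capitals mark the bases that lay inside a peak.
Start 1, chr14:48667645-48667894: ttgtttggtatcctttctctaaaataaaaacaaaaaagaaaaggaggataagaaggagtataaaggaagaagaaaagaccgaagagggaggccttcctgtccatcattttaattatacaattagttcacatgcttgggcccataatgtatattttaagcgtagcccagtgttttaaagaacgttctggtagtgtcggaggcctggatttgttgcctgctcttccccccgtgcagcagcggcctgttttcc
Start 3, chr14:48665110-48665359: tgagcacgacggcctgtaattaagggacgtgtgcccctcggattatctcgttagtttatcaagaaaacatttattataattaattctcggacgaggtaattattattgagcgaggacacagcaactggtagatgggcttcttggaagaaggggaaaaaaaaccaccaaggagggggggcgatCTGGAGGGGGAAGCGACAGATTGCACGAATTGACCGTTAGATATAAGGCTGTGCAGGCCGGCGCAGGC
Start 4, chr14:48662735-48662984: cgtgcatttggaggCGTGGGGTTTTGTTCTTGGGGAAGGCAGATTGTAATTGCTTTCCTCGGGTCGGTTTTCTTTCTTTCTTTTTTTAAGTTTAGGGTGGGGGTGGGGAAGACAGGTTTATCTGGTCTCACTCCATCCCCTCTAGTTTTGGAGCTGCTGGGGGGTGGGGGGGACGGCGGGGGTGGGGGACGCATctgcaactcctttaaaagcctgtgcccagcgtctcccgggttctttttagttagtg

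No list had a peak in the windows of starts 1 and 2, taken from 250 bases before to 50 bases after the start. The peak at start 3 belonged to Rd2_EpiLC 2 (chr14:48664832-48665177, 346 bp) and covered the start and the 68 bases before it. It stood at the 15.5 percentile of its list, where 100 would be the strongest peak by the deposited −log10 p. The peak at start 4 belonged to EpiSC_AF 2 (chr14:48662791-48662970, 180 bp) and stood at the 3.86 percentile. Both peaks were therefore among the weakest of their lists. For comparison, 58.5% of the 17492 protein-coding genes with a promoter entry had a promoter peak in 3 or more lists, and between 20.8% and 53.2% had one in a given first-set library.

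The start windows were also read for letters. The word TAATCC, which Otx family homeodomains are known to bind, was searched on both strands and found once in the window of start 3 and not in the other 3 windows. That match lay outside the peak. Of 21263 protein-coding promoter windows of the same length, 6.42% held TAATCC. The word TAATTA, which reads the same on both strands, occurred once in the window of start 1 and 3 times in that of start 3, against 4.53% of windows with a match. G and C made up 41.7%, 47.7%, 51% and 53.7% of the windows of starts 1 to 4, below the median of 56.3%.

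The locus peaks lay mainly outside the gene, which takes up 10.9 of the 210.9 kb of the window. Of the 55 peaks, 16 lay past the 3′ end in 1 region, 8 lay within the gene in 6 regions and 31 lay upstream in 6 regions. Regions are named here by place: the 3′ region (chr14:48654634-48655756), the gene-body region (chr14:48658767-48659298), and the near, middle and far upstream regions (chr14:48700897-48701371, chr14:48709432-48709803 and chr14:48722830-48723080). The 3′ region ended 1.02 kb from the gene and lay in no annotated gene span. The upstream regions lay 33.25, 41.8 and 55.2 kb from the first start, all inside the span of Otx2os1, a long non-coding RNA gene on the upstream side. The middle one also lay in the span of Gm38660, another non-coding gene. Exons were not analysed here.

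**Figure D1:**
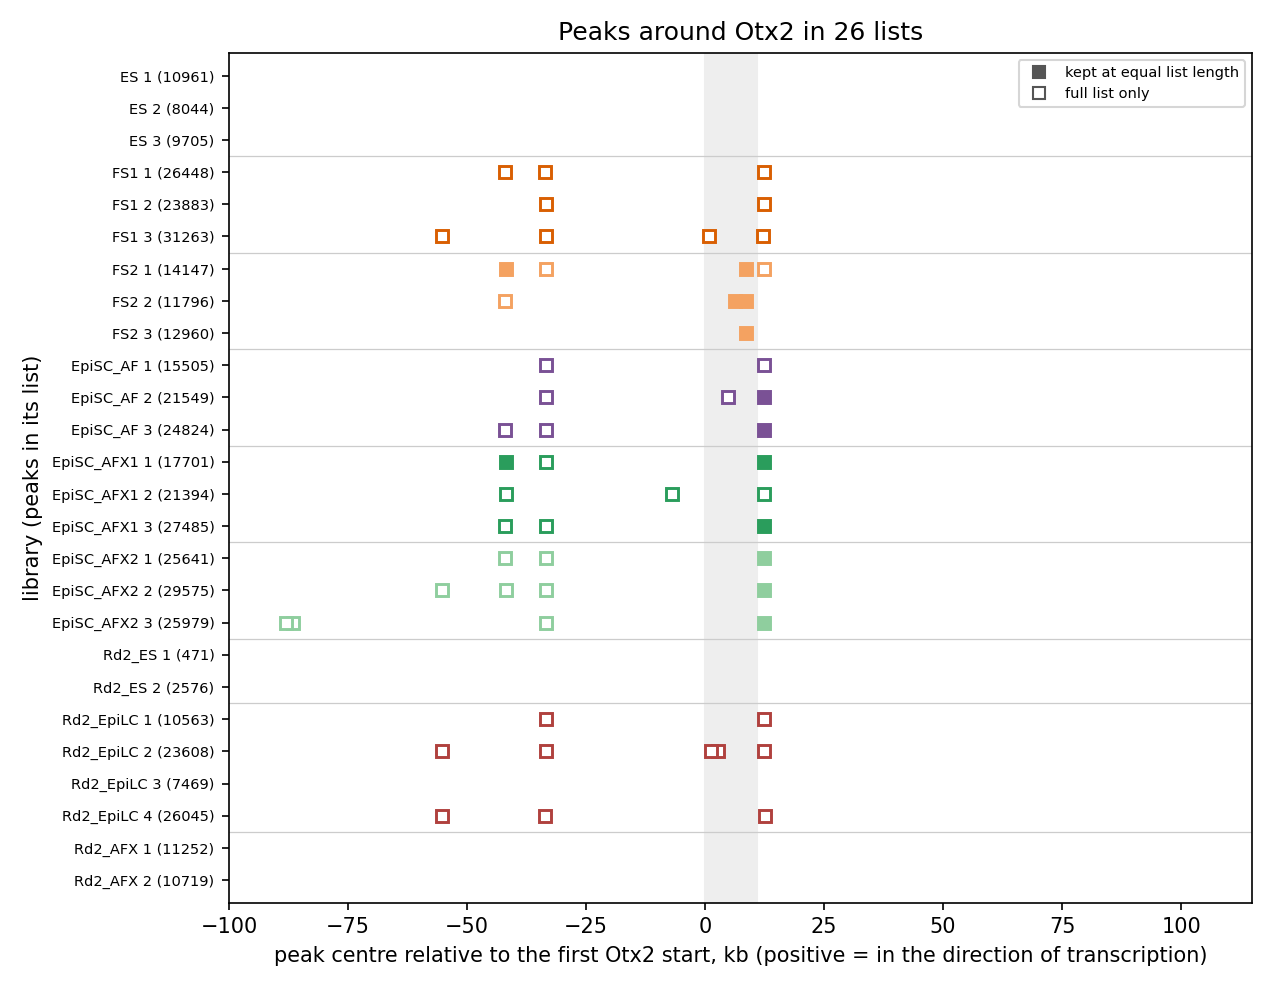
Centre of every peak around Otx2 (x axis, kb from the first start, positive in the direction of transcription) in each of the 26 libraries (y axis, with the number of peaks in the list). The grey band is the gene, filled squares are peaks kept at equal list length (8044 peaks in the first set, 471 in the Rd2 set) and open squares are found in the full list only; 8 libraries, among them all ES and Rd2_ES libraries, have no square.

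No ES library had a peak at the locus. The 3 ES libraries and both Rd2_ES libraries had 0 peaks there. The nearest ES peaks outside the window lay 953 to 1027 kb from the gene on the 3′ side and 331 to 504 kb on the upstream side. Such distances were not particular to libraries without locus peaks, since FS2 2 and FS2 3 stood at 953 kb and Rd2_EpiLC 1 at 1027 kb on the 3′ side. All 15 other libraries of the first set had at least 1 peak. FS1 had 3, 2 and 4 peaks, FS2 had 4, 3 and 1, EpiSC_AF had 2, 3 and 3, EpiSC_AFX1 had 3 in each library, and EpiSC_AFX2 had 3, 4 and 4. ES did not overlap any of these cultures.

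On the lists as deposited, ES had 2.83 fewer peaks per library than FS (0 against 2.83 ± 1.17, SD, n = 3 and 6) and 3.33 fewer than EpiSC_AFX (0 against 3.33 ± 0.516, n = 3 and 6). An exact permutation test over libraries gave p = 0.0119 for both, the smallest value that 3 against 6 allows. Adjusted over all genes tested, this was 0.109 for FS and 0.0262 for EpiSC_AFX. Such a gap was common in these lists. Every FS library was above every ES library at 25.2% of 20862 genes, and every EpiSC_AFX library at 52% of 20987 genes, 52.7% of which passed the same test. The Otx2 call against EpiSC_AFX was thus 1 of 11069.

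List length moved with these counts. ES lists held 8044 to 10961 peaks, FS2 lists 11796 to 14147, EpiSC_AFX lists 17701 to 29575 and FS1 lists 23883 to 31263. Read depth is unknown, since the lists give no read numbers. Lists were therefore also cut to the 8044 peaks with the highest −log10 p, the length of the shortest first-set list.

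**Figure D2:**
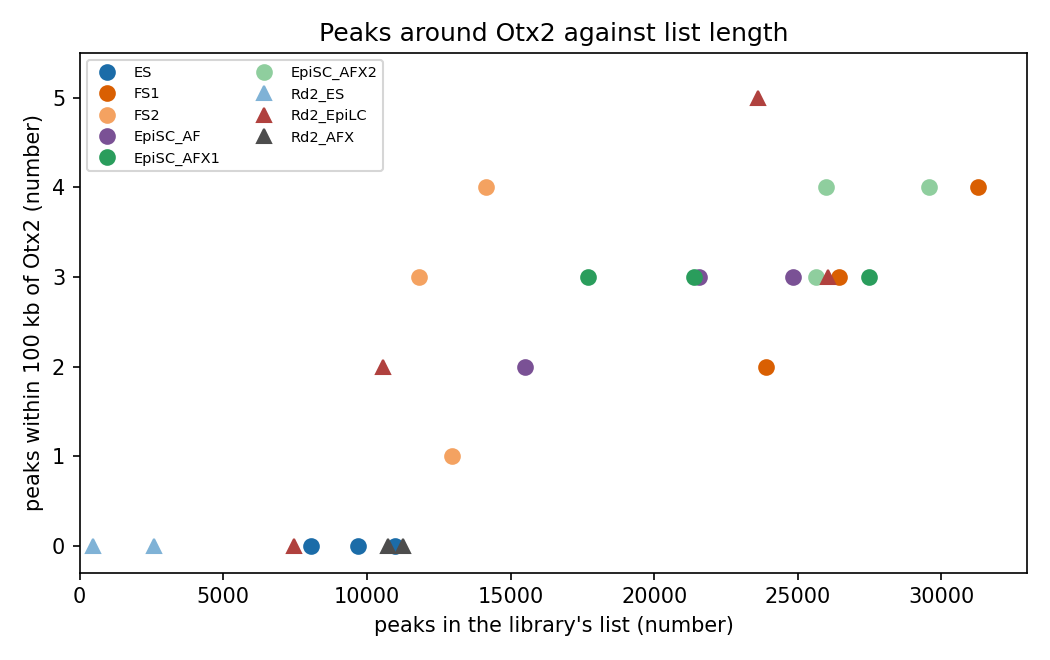
Number of peaks within 100 kb of Otx2 (y axis) against the number of peaks in the library's list (x axis); each point is a library, circles for the first set and triangles for the Rd2 set. Libraries with no peak have lists of 471 to 11252 peaks, and within that range Rd2_EpiLC 1 has 2 peaks. These are 113 and 120 bp wide, and no first-set list holds a peak under 150 bp.

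At equal length 13 first-set peaks were left at the locus. ES had 0 in each library and FS1 had 0 in each library. FS2 had 2, 2 and 1, EpiSC_AF had 0, 1 and 1, EpiSC_AFX1 had 2, 0 and 1, and EpiSC_AFX2 had 1 in each. So FS1 matched ES at this length, and ES and FS as a whole overlapped. The cut kept 25.7% to 33.7% of the FS1 lists and 73.4% to 100% of the ES lists. The difference was 0.833 peaks per library between ES (0) and FS (0.833 ± 0.983), with exact permutation p = 0.321 and an adjusted p of 0.67. Against EpiSC_AFX (1 ± 0.632) it was 1 peak, with exact p = 0.119 and an adjusted p of 0.357.

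The comparisons of FS, EpiSC_AF and EpiSC_AFX with each other gave differences within the spread between libraries, with the lines of a type pooled. At equal length the difference of FS minus EpiSC_AFX was -0.167 (exact permutation p = 1), that of FS minus EpiSC_AF was 0.167 (p = 1) and that of EpiSC_AF minus EpiSC_AFX was -0.333 (exact p = 0.619, adjusted 1). FS minus EpiSC_AFX changed sign to 0.333 when peaks were ranked by fold enrichment and to 29.2 bases when covered bases were counted. The joined FS group hid a split between its lines: at equal length FS1 (0 in each library) did not overlap FS2 (1 to 2) or EpiSC_AFX2 (1 in each). The cut kept 25.7% to 33.7% of the FS1 lists, 27.2% to 31.4% of the EpiSC_AFX2 lists and 56.9% to 68.2% of the FS2 lists. As deposited, FS1 (2 to 4) and FS2 (1 to 4) overlapped. The split of their counts was thus seen at equal length only, and the lines also differed in list length. No test was made between lines, since an exact permutation test of 3 against 3 libraries cannot go below 0.10. No gene passed the exact permutation test in any of the 5 comparisons at equal length, although 3088 of 19318 genes had an unadjusted p under 0.05 between ES and FS and 3624 of 19222 between ES and EpiSC_AFX.

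The 3′ region was the most widely shared element, with a peak in 16 of 26 lists. In full lists it was present in all 3 libraries of FS1, EpiSC_AF, EpiSC_AFX1 and EpiSC_AFX2, in 1 of 3 FS2 libraries, in 3 of 4 Rd2_EpiLC libraries, and in no ES, Rd2_ES or Rd2_AFX library. The 16 peaks had widths of 113 to 1074 bp and shared a core of 113 bp, chr14:48655131-48655243, which was the whole peak of Rd2_EpiLC 1. Across all cultures, 670 union regions (0.886%) likewise had a peak in every FS1, EpiSC_AF and EpiSC_AFX library and none in ES, Rd2_ES and Rd2_AFX.

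Its highest ranks were in EpiSC libraries. The percentile was 68.7, 49.6 and 73.5 in EpiSC_AFX1, 73.9, 84.4 and 73.1 in EpiSC_AFX2 and 46.8, 65.6 and 81 in EpiSC_AF. It was 42.4, 61.2 and 57.9 in FS1, 26.6 in FS2 1, and 45.9, 52.2 and 22.4 in Rd2_EpiLC 1, 2 and 4. FS and EpiSC ranks overlapped, through EpiSC_AFX1 2 and EpiSC_AF 1. At equal length the region stayed in 5 of 6 EpiSC_AFX lists and 2 of 3 EpiSC_AF lists and in no FS or ES list. In EpiSC_AF 1 it missed by little, at rank 8257 of its list.

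The presence of the 3′ region separated ES from EpiSC_AFX in full lists, 0 of 3 against 6 of 6 libraries, as did 8.18% of 51601 regions. Fisher's exact test gave p = 0.0119, the smallest that 3 against 6 libraries allow, adjusted to 0.137 over all regions. No region had a lower adjusted value in this comparison, so the test could call none there, whatever the locus. At equal length ES against EpiSC_AFX was 0 of 3 against 5 of 6 (Fisher's exact p = 0.0476, adjusted 0.512). FS against EpiSC_AFX was 0 of 6 against 5 of 6 (Fisher's exact p = 0.0152, adjusted 1). None of the 13 regions passed in any comparison. Over all regions none passed Fisher's exact test either, with 1673 of 20630 at an unadjusted p under 0.05 for ES against EpiSC_AFX and 156 of 18774 for FS against EpiSC_AFX.

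Presence of the 3′ region followed list length closely. All 15 lists with at least 14147 peaks had it, and of the 11 shorter lists only Rd2_EpiLC 1 (10563 peaks) did. The Rd2_EpiLC 1 peak was 113 bp wide, whereas no first-set list held a peak under 150 bp. List length and culture cannot be told apart for the full lists. FS1 lists were about as long as those of EpiSC_AFX2 (23883 to 31263 against 25641 to 29575 peaks), yet all 3 FS1 ranks (42.4 to 61.2) lay below all 3 EpiSC_AFX2 ranks (73.1 to 84.4). This is a description, with no test, for the same reason as above.

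**Figure D3:**
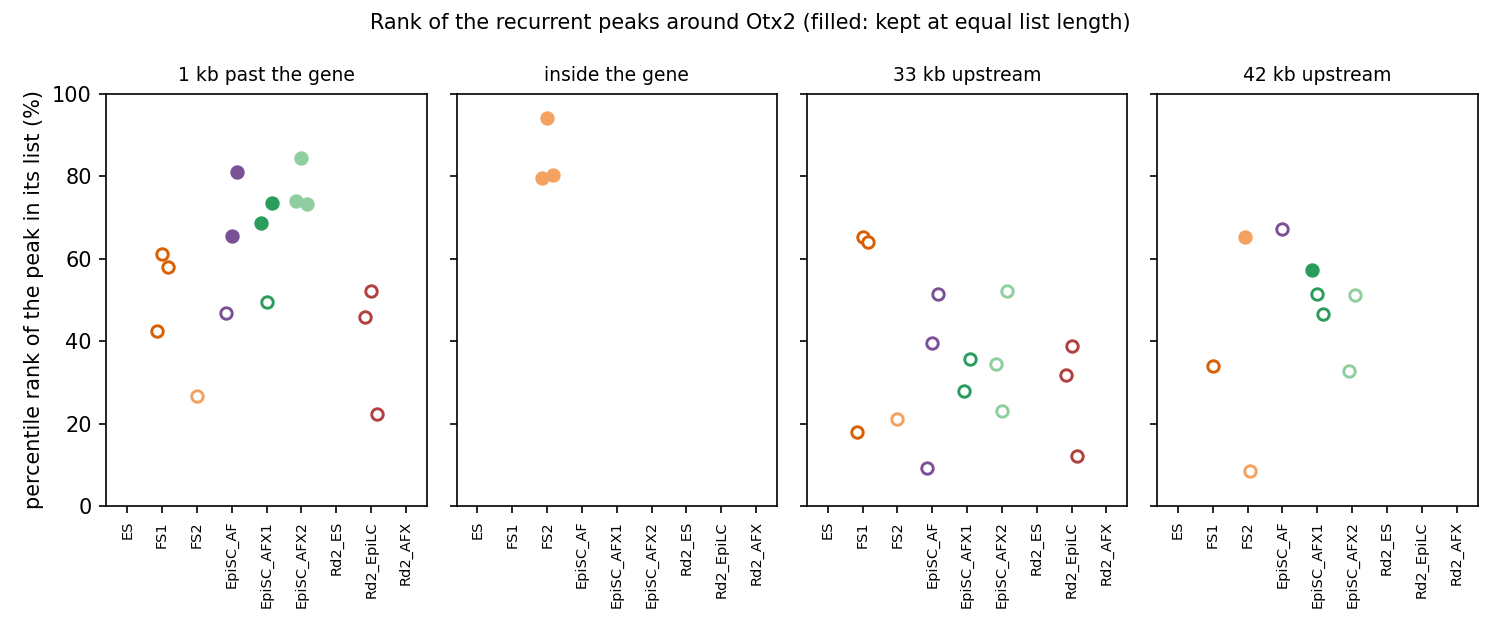
Percentile rank of each peak within its own list (y axis, 100 strongest) by culture (x axis) for the 3′ region, the gene-body region and the near and middle upstream regions; each point is a library with a peak, filled where the peak is kept at equal list length. The 3′ region reaches 84.4 in EpiSC_AFX2, the gene-body region stands at 79.6 to 94.2 in FS2 and has no point elsewhere, and the near upstream region has no filled point.

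The peak of highest percentile at the locus was in the gene body and belonged to FS2 2. At the gene-body region FS2 1 and FS2 3 had lower percentiles than EpiSC_AFX2 2 and EpiSC_AF 3 had at the 3′ region. By place in their shorter lists they stood higher, at ranks 2883 and 2573 against 4609 and 4711. The gene-body region had a peak in all 3 FS2 libraries, at the 79.6, 94.2 and 80.2 percentiles, with widths of 495, 495 and 418 bp. It was kept at equal length in all 3 and had no peak in the other 23 lists, FS1 included. Its centre lay 8.61 kb along the gene from the first start, nearer to the 3′ end. The 3 peaks shared 418 bp, chr14:48658839-48659256. The deposited fold enrichment was 4.49, 4.81 and 4.2, against list medians of 4.14, 4.09 and 3.87, and the widths stood at the 83.9, 85 and 74.7 percentiles of their lists.

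This pattern, taken from the region itself after its values were seen, was rare. The gene-body region was the only 1 of 75600 union regions (0.00132%) with a peak in all 3 FS2 lists and in no other list. The matching number was 130 for FS1, 19 for EpiSC_AF, 18 for EpiSC_AFX1, 110 for EpiSC_AFX2 and 99 for ES. Because FS joins both lines, the region was present in 3 of 6 FS libraries against 0 of 3 ES libraries at equal length (Fisher's exact p = 0.464, adjusted 0.879).

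FS2 2 had a further gene-body peak of 157 bp at chr14:48661288-48661444, at the 79.7 percentile, also found in no other list. Without these 2 regions, a choice made after their values were seen, the FS mean at equal length was 0.167 ± 0.408 peaks (n = 6) in place of 0.833, and 1 FS library had a peak. The ES to FS difference at equal length thus rested mostly on the FS2 gene-body peaks. Marker genes of other cell types were read beside them. The 5 fibroblast markers summed to 4 to 5 peaks in FS2, 2 to 4 in FS1 and 1 to 4 in the other first-set cultures. Col1a2, Postn and Twist2 were at 0 in every culture. The 4 neural markers summed to 2 to 5 peaks in FS2 and 0 to 3 in the other first-set cultures. Sox1, Neurog2 and Olig2 had peaks in FS2 and Pax6 had none there. Outside FS2, Sox1 had peaks in EpiSC_AFX1 only. Their part in the gene-body peaks was not tested. Exon positions and reads were not used here either, so whether these peaks lie on exons, and whether their reads came from the gene itself or from another copy of its sequence, was not tested. The FS2 gene-body peaks, and the ES to FS difference that rests on them, are to be read with that limit.

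The near upstream region had a peak in 15 of 26 lists, each of which also had the 3′ region. It was found in all libraries of FS1, EpiSC_AF and EpiSC_AFX2, in EpiSC_AFX1 1 and 3, in FS2 1 and in Rd2_EpiLC 1, 2 and 4. Percentiles were 18, 65.3 and 64.1 in FS1, 21.2 in FS2 1, 9.2, 39.7 and 51.4 in EpiSC_AF, 27.9 and 35.6 in EpiSC_AFX1, 34.6, 23.1 and 52.2 in EpiSC_AFX2, and 31.8, 38.9 and 12.1 in Rd2_EpiLC. The order was thus unlike that at the 3′ region, with the 2 highest percentiles in FS1, but FS1 1 stood below most EpiSC libraries. No list kept the near region at equal length, and the closest was FS1 2 at rank 8290. In FS1 2 and FS1 3 the near region outranked the 3′ region, and in every EpiSC library with both it ranked lower.

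The middle upstream region had a peak in 9 lists, none of them from the Rd2 set. They were FS1 1, FS2 1 and 2, EpiSC_AF 3, all 3 EpiSC_AFX1 libraries and EpiSC_AFX2 1 and 2. Percentiles ran from 8.55 in FS2 2 to 67.3 in EpiSC_AF 3, with 57.1, 51.5 and 46.5 in EpiSC_AFX1. Equal length kept it in FS2 1 (65.1) and EpiSC_AFX1 1, and EpiSC_AF 3 missed at rank 8129. The peaks shared 124 bp, chr14:48709494-48709617. Unlike the 3′ region, it was missing from FS1 3, the longest list of all (31263 peaks).

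The far upstream region had a peak in 4 lists and in no equal-length list. Its percentiles were 33.4 in FS1 3, 48.5 in EpiSC_AFX2 2, 50.3 in Rd2_EpiLC 2 and 77.5 in Rd2_EpiLC 4. In Rd2_EpiLC 4 it was the best-ranked peak of the locus, well above the 3′ region of that library (22.4). The remaining 7 regions besides the gene-body pair and those named were in 1 list each, in EpiSC_AF 2, Rd2_EpiLC 2, FS1 3, EpiSC_AFX1 2 and EpiSC_AFX2 3, at percentiles of 0.189 to 26.5. In all, 8 of the 13 regions (61.5%) were in 1 list, against 41.7% of all union regions.

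The locus peaks were of middling strength. Their percentiles had a median of 46.8, 30 of 55 lay below 50 and 1 lay above 90. Their median width was 260 bp, against 291 bp over all peaks.

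In the Rd2 set the locus had peaks in the epiblast-like cells only. Rd2_ES had 0 peaks in both libraries (lists of 471 and 2576 peaks) and Rd2_AFX had 0 in both (11252 and 10719). Rd2_EpiLC had 2, 5, 0 and 3 peaks, in lists of 10563, 23608, 7469 and 26045. The library without a peak had the shortest of the 4 lists. No test was made, since an exact permutation test of 4 against 2 libraries cannot pass the threshold.

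The 2 sets did not match for EpiSCs in AFX. Rd2_AFX lacked all regions, whereas every EpiSC_AFX library of the first set had at least 3 peaks. Cut to the 10719 peaks of the shorter Rd2_AFX list, all 6 EpiSC_AFX lists still had a peak (7 peaks in all), as did 4 of 6 FS lists (8 peaks). At that length Rd2_EpiLC 2 had 0 peaks and Rd2_EpiLC 4 had 1. In these 2 Rd2_EpiLC lists, the only ones long enough to be cut, the gap to Rd2_AFX thus came down to 1 peak. Rd2_EpiLC 1 had 2 locus peaks in a list of 10563, shorter than both Rd2_AFX lists. Rd2_EpiLC 3 had 0 in a list of 7469. The sets were processed differently, with a shortest peak of 150 bp in the first and 110 bp in the Rd2 set, so set and culture cannot be told apart. Of 21303 genes with a peak in any list, 851 (3.99%) likewise had none in Rd2_AFX and at least 1 in every EpiSC_AFX list.

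The whole pattern of the first set, no peak in ES and at least 1 in each of the 15 other lists, was shared by 357 genes (1.68%). With no peak in Rd2_ES and Rd2_AFX besides, 37 genes were left (0.174%). Both patterns were taken from the values of Otx2 after they were seen, and each added condition lowers the share. An empty window was not rare by itself in ES (12.5% of genes), Rd2_AFX (18.3%) or Rd2_ES (60%), whose lists were the shortest.

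Other genes of the pathway were read from lists, with windows of the same size and at equal length. Every FS library was above every ES library at 7.54% of 19318 genes. Of the Otx family this held for Crx, the photoreceptor member, with 0 peaks in each ES library and 1 to 3 in FS, and not for Otx1, with 0 in ES and 0 to 1 in FS. Of 14 formative and post-implantation genes it held for 4. Pou3f1, a POU factor of the epiblast, had 1 to 2 peaks in ES and 5 to 8 in FS, and Dnmt3a, a de novo DNA methyltransferase, had 0 to 1 and 2 to 4. The others were Dnmt3b, also a de novo methyltransferase, and Tcf15. Crx, Dnmt3a, Dnmt3b and Tcf15 are named after their values were seen. Nearest to Otx2 in the difference of ES minus FS (-0.833) were Lef1, a Wnt effector, the ETS factor Etv4, and Utf1, at -1 each. None of the 14 was lower in FS throughout. The median difference of ES minus FS in this list was -0.583 peaks, and -0.167 over all genes.

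Germ cell factors, which Otx2 is known to restrain, gave the opposite picture for 1 of 5. Prdm14, a regulator of both naive pluripotency and germ cell fate, had 1 to 2 peaks in each ES library and 0 in every FS and EpiSC_AFX library at equal length. At that length every ES library was above every FS library at 2.78% of genes. On the lists as deposited Prdm14 overlapped, with 1 to 2 peaks in ES, 0 to 1 in FS and 0 to 2 in EpiSC_AFX. Prdm1, Tfap2c, Nanos3 and Dppa3 overlapped between ES and FS, and Nanos3, with 3 to 5 and 2 to 6 peaks, was the nearest to Otx2 in its difference (-0.5). Of the 8 anterior patterning genes none was separated at equal length. Six3, a forebrain homeobox gene, had 0 peaks in ES and 0 to 2 in FS. Its difference of -1 was as near to that of Otx2 as those of Lhx1 and Lefty1 (-1) and Lefty2 (-0.667). On the lists as deposited the counts with every FS library above ES were 1 of 2, 6 of 14, 0 of 5 and 4 of 8 in the Otx, formative, germ cell and anterior lists, to be read against 25.2% of all genes.

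**Figure D4:**
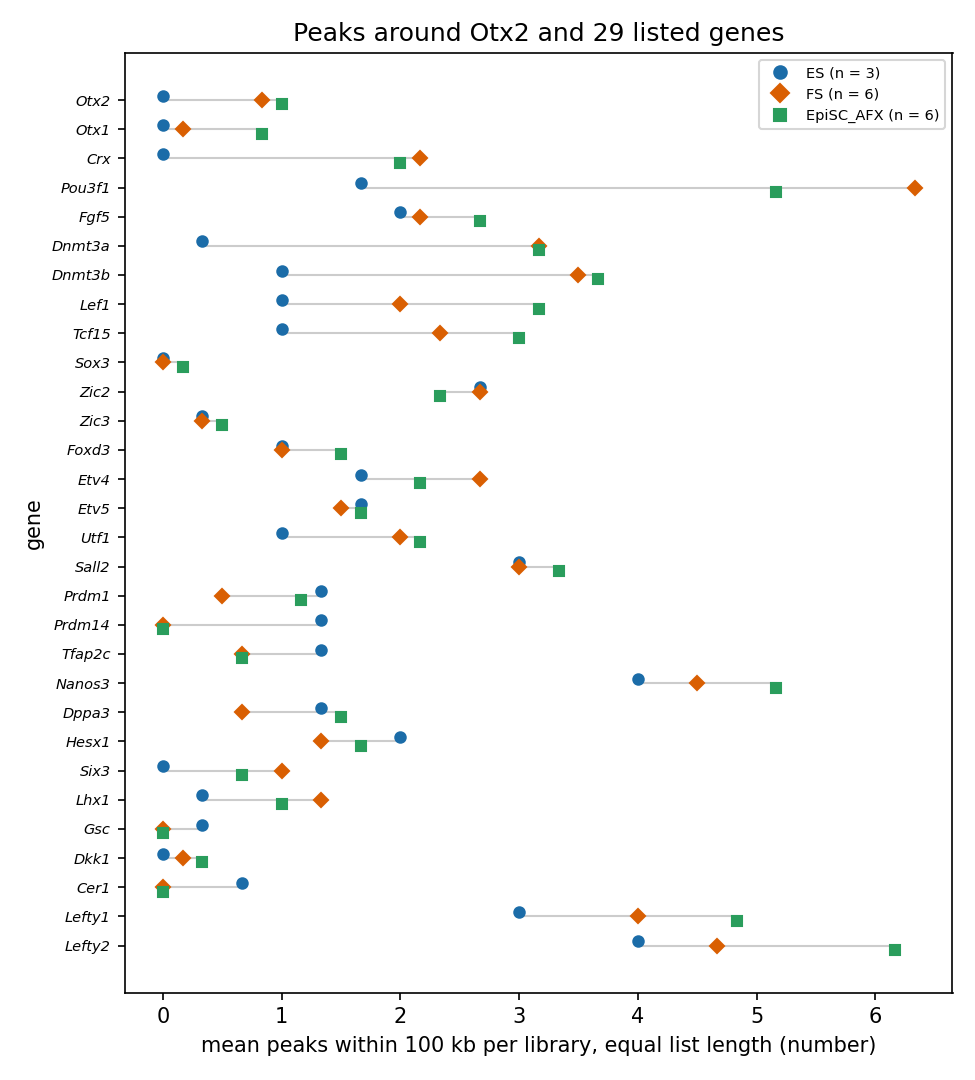
Mean number of peaks within 100 kb per library at equal list length (x axis) for Otx2 and 29 listed genes (y axis), with circles for ES (n = 3), diamonds for FS (n = 6) and squares for EpiSC_AFX (n = 6). Otx2 stands at 0, 0.833 and 1, and Pou3f1 has the widest gap between ES and FS in these lists.

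The genes most like Otx2 were found by covered bases within 100 kb over the 18 first-set libraries at equal length. Pearson's r was 0.85 for Kcna6, 0.829 for Sox10, 0.813 for Skp1, 0.8 for Apol7b and 0.789 for Cenpw, against a median of -0.0448 over 19664 genes. In each of the 5 the lowest FS2 library was above the highest FS1 and ES library. The genes were chosen for likeness to Otx2 over these same libraries, so that order follows largely from the choice. Kcna6 had 270 to 478 bases in FS2, 0 to 206 in FS1 and 0 in ES, and Otx2 had 418 to 672, 0 and 0. The Otx2 bases in FS2 came mostly from the gene-body peaks, to be read with the limit given above. These r values are descriptive, and the libraries share their culture and their list length.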

How the data were processed

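Peaks were read from 26 deposited broadPeak lists, 1 per library, so calling was done by the authors on single libraries. Per the submitters' processing notes, Trim Galore, Bowtie, Picard and MACS2 were used on the build mm10 (GRCm38); versions, settings and controls are not given in the sources used here. The deposited fold enrichment is the authors' ratio, and its reference is not stated. The deposited −log10 p and −log10 q are the authors' values, as is the deposited score, which was not used. They were used to rank peaks within a list; only the −log10 q alternative below set 1 cutoff for all lists.

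A library's peaks were counted within 100 kb of each of 21900 protein-coding genes of GRCm38.p6, an overlap of 1 bp sufficing. Lists were cut to 8044 peaks by −log10 p. Label assignments were enumerated exactly (two-sided, 84 for 3 against 6 and 924 for 6 against 6), with Benjamini-Hochberg adjustment over genes. Region presence was tested by Fisher's exact test (two-sided), adjusted over all union regions, with a threshold of 0.05. Regions in at least 6 lists, or in every library of a culture, were described singly; likeness named the 5 genes of highest r with windows apart. Alternatives were list length, ranking, −log10 q of at least 5, windows of 50 and 20 kb, covered bases, midpoints, left-out libraries, single lines and a replicate block; the cut to the Rd2_AFX length was added after seeing the data. Members and lists were chosen with earlier results of these data known. The window counting was checked against a direct count on part of the deposited lists, and the permutation test on simulated counts. Python 3.11.15, numpy 2.4.6, pandas 2.3.3 and scipy 1.17.1 were used.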

Additional observations from a re-analysis of the deposited data

Results flagged for a closer look

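The peak of FS2 1 at the near upstream region was 176 bp wide, whereas the 3 FS1 peaks there were 330, 349 and 353 bp. Its gap to the nearest of these took up more of the range than Dixon's test allows at the 95% level for 4 samples. Chance gives such a gap in about 1 of 20 groups. FS2 1 was the only FS2 library with a peak there, so line and library cannot be told apart. Over whole lists the median peak width was 252 to 274 bp in FS2 and 290 to 300 bp in FS1. The FS2 1 peak ended before the one of Rd2_EpiLC 1 at the same region began, so the 15 peaks of the near upstream region had no base in common to all.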

How the results depend on the processing

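Across the alternatives tried, ES had fewer peaks at the locus than EpiSC_AFX in each, and fewer than FS in each except with FS1 as the only FS line, where both were at 0. The size moved: ES minus FS (-0.833 at equal length) was -0.167 with −log10 q of at least 5, -1.67 with FS2 as the only FS line and -2.83 with lists as deposited. The ES to EpiSC_AFX difference passed the threshold only with lists as deposited (-3.33). Differences that changed sign were all within the spread of libraries: FS minus EpiSC_AFX became 0.333 when ranked by fold enrichment, 29.2 covered bases, and 0.667 with FS2 as the only FS line; FS minus EpiSC_AF became -0.167 with −log10 q of at least 5 and -0.667 with FS1 alone; EpiSC_AF minus EpiSC_AFX became 0.333 when ranked by fold enrichment. The mean of Rd2_EpiLC was 2.5 peaks as deposited and 0 when cut to the 471 peaks of the shortest Rd2 list. That cut kept 1.81% to 6.31% of each Rd2_EpiLC list, and their locus peaks reached the 77.5 percentile at most. The 0 thus says little about the locus. Leaving out 1 library gave -1 to -0.6 for ES minus FS, -1.2 to -0.8 for ES minus EpiSC_AFX, -0.4 to 0.0333 for FS minus EpiSC_AFX (0.0333 without EpiSC_AFX1 1), -0.167 to 0.333 for FS minus EpiSC_AF (-0.167 without EpiSC_AF 1, and -0.0667 without FS2 1 or without FS2 2) and -0.533 to 0 for EpiSC_AF minus EpiSC_AFX; without EpiSC_AFX1 2, the 3′ region was present in every EpiSC_AFX list and in no ES or FS list at equal length, and without EpiSC_AF 1 it was present in both EpiSC_AF lists left and in no FS list. The causes were not tested. No locus region passed under any alternative for presence, the one asking a peak to cover 50% of the region included.

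With a replicate block on the title numbers, ES minus FS was -0.833 (exact permutation p = 0.407) and ES minus EpiSC_AFX -1 (p = 0.148), and no call changed. The numbers did not pair the libraries: deviations of same-numbered libraries had r of -0.0622 to 0.0438 over 45 pairs. Peak lists without read numbers do not show whether an absent peak was closed chromatin or too few reads.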
